A study of Rattus norvegicus with 9 samples.

Results

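The genes encoding the integrin receptor subunits and the laminin chains were followed in rat liver. They were chosen by symbol alone, as every integrin alpha, integrin beta and laminin alpha, beta or gamma gene named in either deposited table, which gave 36 of the 17156 genes listed. Of these, 17 encode integrin alpha subunits, 8 encode integrin beta subunits and 11 encode laminin chains (5 alpha, 3 beta and 3 gamma). The integrin alpha subunit gene Itgam was not analysed here.

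Liver RNA of 9 male Sprague-Dawley rats was sequenced, with 3 rats in each of 3 groups. The normal control group was given saline. The model group was given carbon tetrachloride (CCl4) by mouth at 2 ml/kg for 9 weeks to induce fibrosis, and the TA group was given the same CCl4 and then tormentic acid (TA), a plant compound, for 6 weeks, at 3 mg/kg by the series description, although the TA labels carry no dose. No group that received TA without CCl4 was analysed here. The deposited values are read counts per gene, which summed to between 13156735 and 18090405 per liver.

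Laminins are secreted trimers of 1 alpha, 1 beta and 1 gamma chain that form the core sheet of basement membranes. Integrins are cell surface receptors made of 1 alpha and 1 beta subunit. Their alpha subunit largely sets the ligand, such as laminin, collagen, or proteins carrying an Arg-Gly-Asp (RGD) motif, and some alpha-v integrins bind latent TGF-beta, a profibrotic cytokine. The normal liver sinusoid is known for lacking a continuous basement membrane, and laminin deposition there is a recognised feature of fibrosis.

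Hepatocyte markers were present in every liver, with none of 8 at 0. The first model rat stood apart from the other 8 livers. Its 50 most abundant genes held 27.9% of its counts, against 40.4% to 45.7% elsewhere, and its summed hepatocyte markers were at 35884 CPM (read counts relative to library size), against 102435 and 111997 in the other model livers. The stellate cell and myofibroblast markers summed to 12535 CPM in that rat, against a median of 1561 in the model group, a highest value of 1254 in the TA group and a highest value of 316 in the normal control group. CPM values were scaled by TMM, which corrects for differences in library composition. Since RNA of whole liver was measured, more cells of a type and more RNA per cell cannot be told apart.

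The summed level of the 11 laminin genes was 72.3, 56.5 and 55.1 CPM in the normal livers, 476, 213 and 170 CPM in the model livers and 124, 92.3 and 103 CPM in the TA livers. The 3 groups did not overlap, with the TA livers between the other two. The 25 integrin genes summed to 325, 306 and 292 CPM in the normal livers, 858, 486 and 466 CPM in the model livers and 446, 391 and 309 CPM in the TA livers. For integrins, the lowest TA liver lay within the range of the normal livers. Of the 36 genes, 28 had a TA mean between the normal and model means. Among the model livers, 29 of 36 genes had their highest level in the first rat, 2 had it in the second rat and 5 had it in the third rat.

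Levels per length (RPKM, the CPM divided by gene length in kilobases) show which subunits dominated. In normal liver, Itgb1, the beta subunit shared by most matrix-binding integrins, was highest at 21.7 ± 5.02 RPKM (SD, n = 3). It was followed by Itga5, the fibronectin receptor subunit, at 10.5 ± 3.00, Itga2b at 8.68 ± 2.13 and Itga7 at 7.17 ± 1.18, where Itga5, Itga2b and Itga7 each differed from the next by less than 1 SD. Laminin genes were lower, led by Lamb2 at 3.13 ± 0.240 RPKM and Lamc1 at 1.94 ± 0.659 RPKM. In model liver Itgb1 was again highest, at 53.7 ± 19.0 RPKM, and Lamb1 at 14.7 ± 11.0 RPKM was the most abundant laminin gene. In TA liver Itgb1 was at 33.3 ± 10.8 RPKM, and Lamb2 at 4.81 ± 1.32 and Lamb1 at 4.29 ± 1.5 RPKM differed by less than their SD.

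The comparison Model VS Normal asks which subunits differed after CCl4 exposure. Several laminin chains rose, as did the laminin-binding subunits Itga3, Itga6 and Itgb4 and the TGF-beta-activating subunits Itgb6 and Itgb8. The platelet subunit Itga2b fell. The laminin-binding subunit Itga7 was also lower, but only before adjustment of its p-value. Of the 36 genes, 31 had enough counts to be tested. With an adjusted p-value under 0.05, 12 rose and 1 fell, where 6.86% of the 12730 genes tested rose and 1.01% fell. By the study's own thresholds (p under 0.05 before adjustment, and more than 1 on the log2 scale up or down), 17 were higher and 2 lower, against 16.6% and 5.55% of all genes tested. The study applied these thresholds to DESeq2 results, while here they were applied to those of edgeR. The groups did not overlap for 17 genes that were higher and 2 that were lower in the model group, against 20.4% and 17.9% of all genes tested. The median log2 fold change of the tested subunits was 1.52, beside 0.02 for all genes tested. It was 2.00 for the 9 tested laminin chains, of which 5 rose by the adjusted p and 7 were called by the study's thresholds. For the 22 tested integrin subunits the median was 0.99, with 7 up and 1 down by the adjusted p and 10 up and 2 down by the study's thresholds.

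The adjusted calls depended on the number of normal livers. When the first model rat was left out, 12 of the 13 were called again, with Itgb8 as the exception. With the first normal rat left out, 3 were, Itga8 and Itgb6 among them, and 51 of all genes. Leaving out the second or the third normal rat left 0 calls among all genes by edgeR's quasi-likelihood test, while by the study's thresholds 18 and 16 of the 19 subunits were still called.

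**Figure D1:**
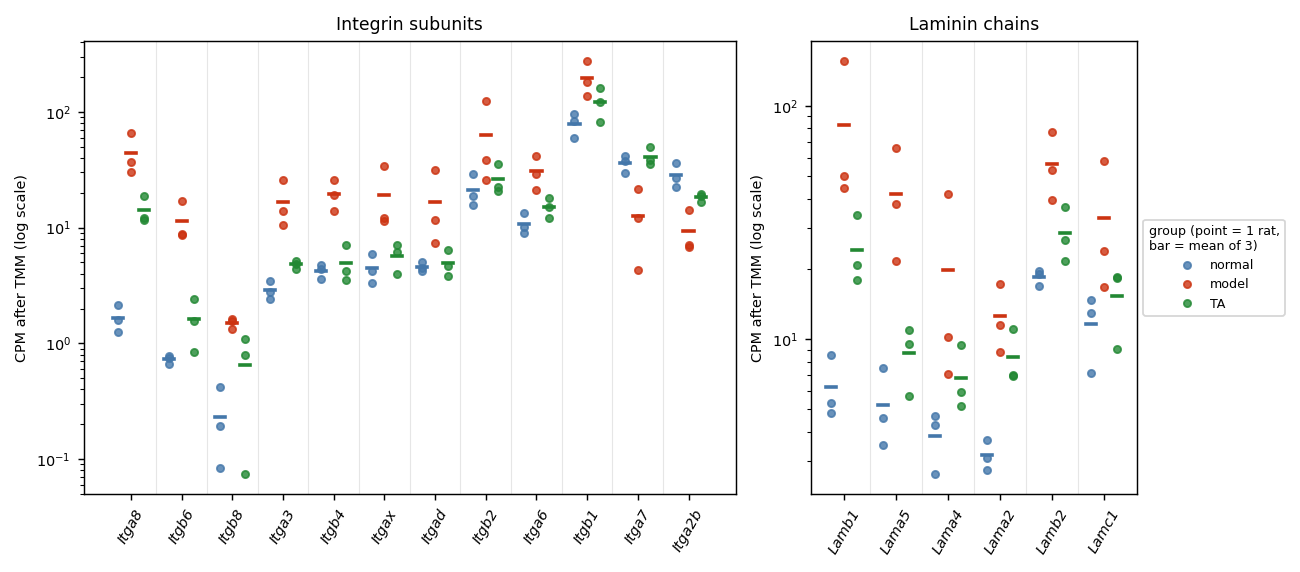
Level of 18 subunit genes called in Model VS Normal, in CPM after TMM on a log axis, with 1 point per rat and a bar at the mean of 3 rats. The model livers (red) lie above the normal livers (blue) for all but Itga7 and Itga2b, which lie below, and for Itgb2, whose groups overlap, and the first model rat is the highest model point for most genes.

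Among laminin alpha chains, Lama5, the alpha chain of most adult epithelial and vascular basement membranes, had the largest difference. Its levels were 7.53, 4.59 and 3.51 CPM in the normal livers, 65.8, 37.9 and 21.7 CPM in the model livers and 11.0, 5.69 and 9.56 CPM in the TA livers. Every model liver lay above every other liver, and the normal and TA livers overlapped. Lama5 rose 8.18-fold with CCl4 (log2 fold change 3.03, SE 0.48, adjusted p = 0.0155). Lama2, the alpha chain of muscle and mesenchymal laminins, was at 3.10, 3.69 and 2.76 CPM in normal liver, 17.3, 8.80 and 11.5 CPM in model liver and 11.1, 6.96 and 7.02 CPM in TA liver. Here both CCl4 groups lay above the normal livers and overlapped each other, and Lama2 rose 4-fold (log2 fold change 2.00, SE 0.35, adjusted p = 0.0215). Lama4, an endothelial and mesenchymal chain, was at 4.27, 2.65 and 4.68 CPM in normal liver, 41.9, 7.11 and 10.2 CPM in model liver and 5.94, 5.18 and 9.41 CPM in TA liver. One rat set most of that difference: Lama4 was called only by the study's thresholds (log2 fold change 2.39, SE 0.68, adjusted p = 0.0691), and leaving out the first model rat gave 1.16.

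Lamb1, the beta chain of laminins found across many tissues, was at 8.54, 5.31 and 4.85 CPM in normal liver, 155, 49.9 and 44.5 CPM in model liver and 33.9, 20.8 and 17.9 CPM in TA liver. The 3 groups were fully separated, and Lamb1 rose 13.6-fold with CCl4 (log2 fold change 3.77, SE 0.56, adjusted p = 0.0139). It was 2.92 on the log2 scale when the first model rat was left out. Lamb2, the beta chain of vascular and neuromuscular laminins, was at 19.6, 16.9 and 19.0 CPM in normal liver, 77.3, 52.9 and 39.4 CPM in model liver and 26.6, 21.7 and 36.9 CPM in TA liver. Its groups were also separate in this order, and it rose 3.11-fold (log2 fold change 1.64, SE 0.29, adjusted p = 0.0215). Lamb3, the beta chain of the epithelial laminin that anchors hemidesmosomes, was at 3.01, 2.33 and 6.61 CPM in normal liver and 11.6, 4.04 and 4.74 CPM in model liver. These ranges overlapped, and the difference did not pass either threshold (log2 fold change 0.81, SE 0.57, adjusted p = 0.373).

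Lamc1, the gamma chain of most laminins, was at 14.7, 13.0 and 7.19 CPM in normal liver, 58.2, 23.8 and 16.8 CPM in model liver and 18.5, 18.3 and 9.11 CPM in TA liver. The model livers lay above the normal livers, but Lamc1 was called only by the study's thresholds (log2 fold change 1.53, SE 0.50, adjusted p = 0.0944), and not without the first model rat (0.79) or the third normal rat (1.25).

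Among the alpha subunits of RGD-binding integrins, Itga8 gave the largest fold change of all 31 tested subunits. Itga8 pairs with the beta-1 subunit and marks mesenchymal cells, hepatic stellate cells among them. It was at 1.59, 2.14 and 1.25 CPM in normal liver, 65.2, 36.8 and 30.4 CPM in model liver and 18.9, 12.1 and 11.6 CPM in TA liver. The groups did not overlap, and Itga8 rose 26.8-fold with CCl4 (log2 fold change 4.74, SE 0.41, adjusted p = 0.00742), and 4.31 on the log2 scale with the first model rat left out. Itga5 was at 38.9, 38.0 and 61.3 CPM in normal liver, 80.3, 50.4 and 43.5 CPM in model liver and 31.6, 40.6 and 45.6 CPM in TA liver. These ranges overlapped and the difference was not called (log2 fold change 0.36, SE 0.32, adjusted p = 0.491).

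Itga2b, the alpha subunit of the platelet fibrinogen receptor, was the gene that fell by the adjusted p. It was at 27.1, 22.6 and 36.4 CPM in normal liver, 7.06, 6.85 and 14.1 CPM in model liver and 18.8, 19.4 and 16.6 CPM in TA liver. The 3 groups were separate, with the TA livers in the middle. Itga2b fell by 1.61 on the log2 scale (SE 0.35, adjusted p = 0.0369). The sum of the other 6 platelet markers did not share this order. It was 5.61, 2.91 and 8.78 CPM in normal liver, 82.2, 23.0 and 14.3 CPM in model liver and 11.1, 5.52 and 11.6 CPM in TA liver. Most of this sum was Pf4, at 4.35, 1.94 and 5.85 CPM in normal liver and 67.1, 18.1 and 11.1 CPM in model liver. Gp1bb was also tested, while Ppbp, Gp9, Gp1ba and Treml1 were too low to be tested. Itgb3, the usual partner of Itga2b, was at 3.85, 4.53 and 3.26 CPM in normal liver and 5.87, 1.43 and 2.69 CPM in model liver. These ranges overlapped (log2 fold change -0.18, SE 0.54, adjusted p = 0.843), and the value depended on the first model rat. Leaving that rat out gave -0.93 on the log2 scale, while leaving out the second gave 0.17 and the third -0.06.

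The beta subunits that pair with alpha-v include Itgb6 and Itgb8, which bind and activate latent TGF-beta. Itgb6, an epithelial subunit, was at 0.670, 0.776 and 0.753 CPM in normal liver, 8.60, 17.1 and 8.78 CPM in model liver and 2.43, 0.849 and 1.57 CPM in TA liver. It was one of the few genes not highest in the first model rat, and it rose 15.7-fold (log2 fold change 3.97, SE 0.43, adjusted p = 0.00871). Itgb8 had few reads, 5, 3 and 1 in the normal livers, 37, 24 and 19 in the model livers and 11, 13 and 1 in the TA livers. It rose 6.5-fold (log2 fold change 2.70, SE 0.63, adjusted p = 0.0427), and gave 3.34 on the log2 scale without the first normal rat and 2.30 without the third. Itgb5, per length the most abundant of this class, was at 19.5, 23.9 and 4.93 CPM in normal liver, 45.7, 15.4 and 27.0 CPM in model liver and 32.2, 29.3 and 10.3 CPM in TA liver. The spread within each group was as wide as the difference between groups (log2 fold change 0.89, SE 0.58, adjusted p = 0.342). Itgav itself gave a log2 fold change of 0.65 (SE 0.34, adjusted p = 0.247).

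Of the subunits that bind laminin, Itga3, Itga6 and Itgb4 rose. Itga3 was at 2.76, 3.49 and 2.42 CPM in normal liver, 25.8, 14.0 and 10.6 CPM in model liver and 4.87, 5.18 and 4.41 CPM in TA liver, and rose 5.9-fold (log2 fold change 2.56, SE 0.41, adjusted p = 0.016). Its 3 groups were separate. Itgb4, which pairs with Itga6 and links laminin to keratin filaments, was at 4.35, 3.62 and 4.77 CPM in normal liver, 25.7, 19.0 and 13.8 CPM in model liver and 3.51, 4.25 and 7.09 CPM in TA liver, and rose 4.68-fold (log2 fold change 2.23, SE 0.32, adjusted p = 0.0123). For Itgb4 the TA and normal livers overlapped. Itga6 was at 10.2, 8.99 and 13.3 CPM in normal liver, 41.6, 28.9 and 21.2 CPM in model liver and 15.0, 18.2 and 12.2 CPM in TA liver, and rose 2.87-fold (log2 fold change 1.52, SE 0.31, adjusted p = 0.0321).

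Itga7, the remaining laminin-binding alpha subunit and best known from skeletal muscle, was lower in the model group. It was at 29.7, 37.9 and 41.3 CPM in normal liver, 4.28, 12.0 and 21.4 CPM in model liver and 35.7, 49.3 and 38.1 CPM in TA liver. Every model liver lay below every other liver, although Itga7 was called only by the study's thresholds (log2 fold change -1.53, SE 0.50, adjusted p = 0.0977) and not without the third normal rat (-1.45). The value was -2.16 with the third model rat left out and -1.13 with the first left out. In the RefSeq annotation of assembly GRCr8, Itga7 overlaps the gene Mettl7b, and no source used here says that reads were counted by strand. Mettl7b had 1443, 2095 and 824 reads in the normal livers, 209, 332 and 1177 in the model livers and 1827, 756 and 432 in the TA livers, and its part in the Itga7 counts was not tested. In the same annotation, Itga1, Itga4, Itgae, Itgb1 and Itgb7 also overlap protein-coding genes. The part of those genes in the subunit counts was not tested either.

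Itgb1 was at 94.9, 83.7 and 59.0 CPM in normal liver, 273, 181 and 136 CPM in model liver and 161, 122 and 81.7 CPM in TA liver. The model livers lay above the normal livers, and the call was by the study's thresholds alone (log2 fold change 1.34, SE 0.36, adjusted p = 0.0587), and was lost when the first model rat was left out (0.99). Among collagen-binding subunits, Itga1 was at 3.43, 8.86 and 3.76 CPM in normal liver, 4.54, 3.91 and 5.17 CPM in model liver and 5.80, 6.11 and 2.02 CPM in TA liver, with no call (log2 fold change -0.22, SE 0.44, adjusted p = 0.768). Itga11, a collagen receptor subunit of fibroblasts, had 2, 8 and 1 reads in normal liver, 104, 16 and 9 in model liver and 27, 16 and 11 in TA liver. Its counts were too low to be tested in this comparison. Itga9, a receptor subunit for tenascin and osteopontin, was at 3.01, 4.53 and 2.59 CPM in normal liver, 8.95, 3.78 and 6.09 CPM in model liver and 7.30, 5.35 and 3.96 CPM in TA liver, which overlapped (log2 fold change 0.91, SE 0.43, adjusted p = 0.201).

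Of the 6 leukocyte subunits tested, all had a positive log2 fold change, and Itgax was the one that rose by the adjusted p. Itgax, the CD11c subunit of dendritic cells and some macrophages, was at 5.94, 3.30 and 4.18 CPM in normal liver, 34.3, 12.1 and 11.5 CPM in model liver and 7.02, 6.11 and 3.96 CPM in TA liver, and rose 4.41-fold (log2 fold change 2.14, SE 0.50, adjusted p = 0.0426). On the log2 scale its difference was 1.40 when the first model rat was left out. Itgad, a related macrophage subunit, was at 4.52, 4.21 and 5.02 CPM in normal liver, 31.3, 7.43 and 11.6 CPM in model liver and 6.37, 3.82 and 4.63 CPM in TA liver. It was called by the study's thresholds (log2 fold change 1.90, SE 0.53, adjusted p = 0.0649), and gave 1.05 with the first model rat left out. Itgb2, the shared beta subunit of these receptors, was at 29.2, 18.6 and 15.6 CPM in normal liver, 124, 25.9 and 38.7 CPM in model liver and 35.8, 22.3 and 20.9 CPM in TA liver. Its groups overlapped, and the call by the study's thresholds (log2 fold change 1.60, SE 0.58, adjusted p = 0.119) was lost without the first model rat (0.61), the second normal rat (1.5) or the third normal rat (1.40). Itgal, the lymphocyte LFA-1 subunit, was at 20.3, 11.1 and 11.3 CPM in normal liver, 31.4, 14.9 and 24.4 CPM in model liver and 23.6, 13.9 and 11.1 CPM in TA liver, with overlap and no call (log2 fold change 0.76, SE 0.36, adjusted p = 0.207).

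In all, 12 of the 31 tested subunits were not called by either rule, with log2 fold changes from -0.22 to 1.02 and adjusted p-values from 0.11 to 0.882. Itga10, Itga11, Itga2, Lama1 and Lamc3 were too low to be tested, with at most 104 reads in any liver. Lama1 had 0 reads in all normal livers and 25, 7 and 0 in the model livers.

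Markers of several cell types differed between the same groups. Among all genes tested in Model VS Normal, 6.86% rose and 1.01% fell by the adjusted p. By the study's thresholds, 16.6% were higher and 5.55% lower. The 8 hepatocyte markers, of which none was called by either rule, summed to between 128818 and 168021 CPM in normal liver, 35884 and 111997 CPM in model liver and 110905 and 184718 CPM in TA liver. The 7 cholangiocyte markers summed to between 18.3 and 32.0 CPM in normal liver, 126 to 1985 CPM in model liver and 35.4 to 56.7 CPM in TA liver. The highest sum was that of the first model rat, where Spp1 alone was at 1817 CPM, against 44.8 and 26.8 CPM in the other model livers. In Model VS Normal 6 of the 7 rose by the adjusted p, and all 7 were higher by the study's thresholds. Of the 10 stellate cell and myofibroblast markers, 7 rose by the adjusted p and 9 were higher by the study's thresholds. Of the 6 leukocyte markers, 1 rose by the adjusted p and 4 were higher by the study's thresholds. The leukocyte markers summed to 105 to 180, 265 to 734 and 138 to 219 CPM in the normal, model and TA livers. The 7 endothelial markers summed to between 186 and 226, 181 and 348, and 221 and 281 CPM in the same order. Of these, 2 were higher and 1 lower by the study's thresholds, and 0 passed the adjusted p. The 8 macrophage and Kupffer cell markers had sums of 330 to 455, 216 to 670 and 304 to 739 CPM. Of these, 3 were higher and 2 lower by the study's thresholds, and 0 passed the adjusted p. Of 5 tested neutrophil markers, 4 rose by the adjusted p and 4 were higher by the study's thresholds. All 6 listed summed to between 10.4 and 23.6, 39.1 and 87.0, and 18.8 and 32.6 CPM. None of these marker genes was at 0 throughout a group. The part of any of these cell types in the levels of the subunits was not tested.

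**Figure D2:**
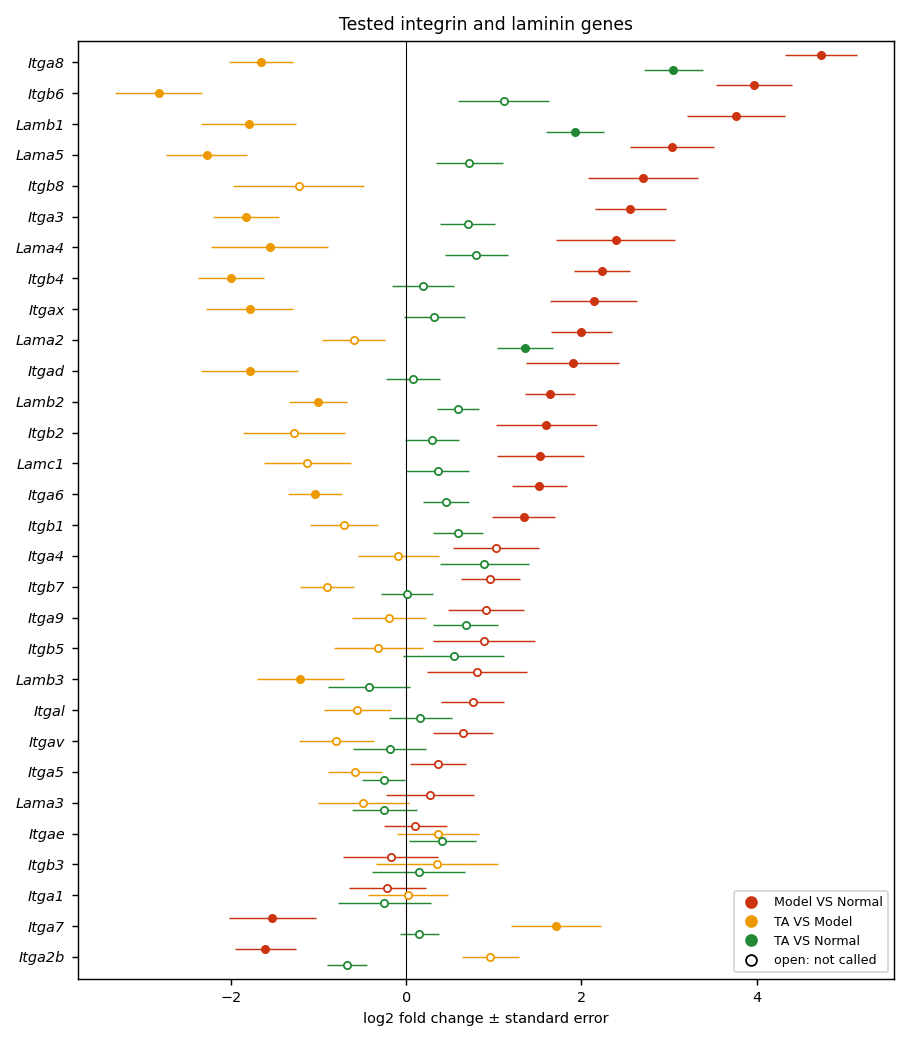
Log2 fold change with its standard error for 30 subunit genes tested in Model VS Normal (red), with TA VS Model (orange) and TA VS Normal (green) where tested. Filled points were called by the adjusted p or by the study's thresholds, and open points were not. Most red points lie right of 0 and most orange points left of it, and the called genes Itga7 and Itga2b lie the other way round, as do Itgb3 and Itga1, which were not called.

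Promoters are shown for Itga8, Itgb6, Lamb1 and Lama5, which rose with CCl4, and for Itga2b, which fell. A role of these sequences in the changes was not tested. RefSeq promoters of assembly GRCr8 were matched for 27 of the 36 genes, with Itga7 among those not matched. Each line gives the 120 bases before the annotated start, read 5′ to 3′ on the gene's strand, with capitals marking a GC box (GGGCGG, or CCGCCC from the other strand) or an ETS core (GAGGAAG):
Itga8, chr17:80410634-80410753, minus strand: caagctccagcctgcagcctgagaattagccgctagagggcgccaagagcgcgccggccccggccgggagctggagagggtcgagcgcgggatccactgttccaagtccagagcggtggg
Itgb6, chr3:65530334-65530453, minus strand: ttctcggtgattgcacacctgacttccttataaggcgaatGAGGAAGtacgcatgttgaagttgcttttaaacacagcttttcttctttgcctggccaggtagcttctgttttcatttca
Lamb1, chr6:53562976-53563095, plus strand: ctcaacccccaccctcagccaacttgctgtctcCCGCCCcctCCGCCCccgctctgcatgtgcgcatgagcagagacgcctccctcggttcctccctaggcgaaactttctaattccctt
Lama5, chr3:187695975-187696094, minus strand: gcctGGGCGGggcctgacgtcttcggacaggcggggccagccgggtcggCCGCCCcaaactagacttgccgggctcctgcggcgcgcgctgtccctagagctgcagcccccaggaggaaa
Itga2b, chr10:87925834-87925953, minus strand: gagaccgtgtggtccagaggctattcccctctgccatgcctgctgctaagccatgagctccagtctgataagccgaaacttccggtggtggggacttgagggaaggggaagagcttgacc

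These windows had little in common in base composition, from 42.5% G and C for Itgb6 to 73.3% for Lama5. Over the 250 bases before the start and on both strands, a GC box was found in 13 of the 27 subunit promoters (48.1%), against 32.4% of 27457 RefSeq promoters. The ETS core was in 6 of the 27, Itgb6 among them, against 10.1% of all promoters. A TATA box (TATAAA) was in 2, Itgb7 and Lama4, against 13.1%, and an AP-1 motif (TGANTCA, with N any base) in 2, Itgax and Lama3, against 6.36%. An E-box (CACGTG) was in none, against 5.79%. No motif here is contained in another, and they are given as descriptions of the letters alone.

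The composition of each family was compared as the share of its summed RPKM, which does not depend on library scaling. Within the laminin beta chains, Lamb1 took 27.2%, 21.5% and 15.2% in normal liver, 63.3%, 47.0% and 50.2% in model liver and 54.4%, 44.5% and 31.2% in TA liver. Lamb2 went from a mean share of 60.7% ± 4.51 in normal to 40.2% ± 9.01 in model liver, although its level was higher there. For the laminin alpha chains, Lama5 took 25.2%, 22.1% and 16.4% in normal liver, 36.1%, 57.1% and 34.4% in model liver and 24.4%, 19.5% and 23.4% in TA liver. Lama3, named after its values were seen, took 35.3%, 32.3% and 26.8% in normal liver, 8.23%, 5.98% and 13.0% in model liver and 20.9%, 18.1% and 12.2% in TA liver, while its level gave no call (log2 fold change 0.27, SE 0.50, adjusted p = 0.748). These shares did not overlap between model and normal livers.

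Among integrin alpha subunits, Itga8 took 0.702%, 0.937% and 0.461% in normal liver, 14.7%, 13.6% and 10.5% in model liver and 7.25%, 4.59% and 4.89% in TA liver. Itga2b took 21.2%, 17.6% and 23.7% in normal liver, 2.82%, 4.48% and 8.67% in model liver and 12.8%, 13.0% and 12.4% in TA liver. Both were separate in all 3 groups. Itgb1 held a mean of 59.2% ± 2.34, 59.6% ± 7.94 and 63.0% ± 0.393 of the integrin beta subunits in normal, model and TA liver, and its model livers overlapped both other groups. Of 36 shares, 18 did not overlap between model and normal livers, 9 between TA and model livers and 11 between TA and normal livers. Each of these had p = 0.1 in the exact permutation test (two-sided), the smallest that 3 rats against 3 allow, so that the design cannot reach 0.05. The lowest adjusted values were 0.2, 0.4 and 0.327 in the same order. Shares within a family are tied, since a larger share of any gene lowers those of others. The counts of shares are therefore not counts of separate results.

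**Figure D3:**
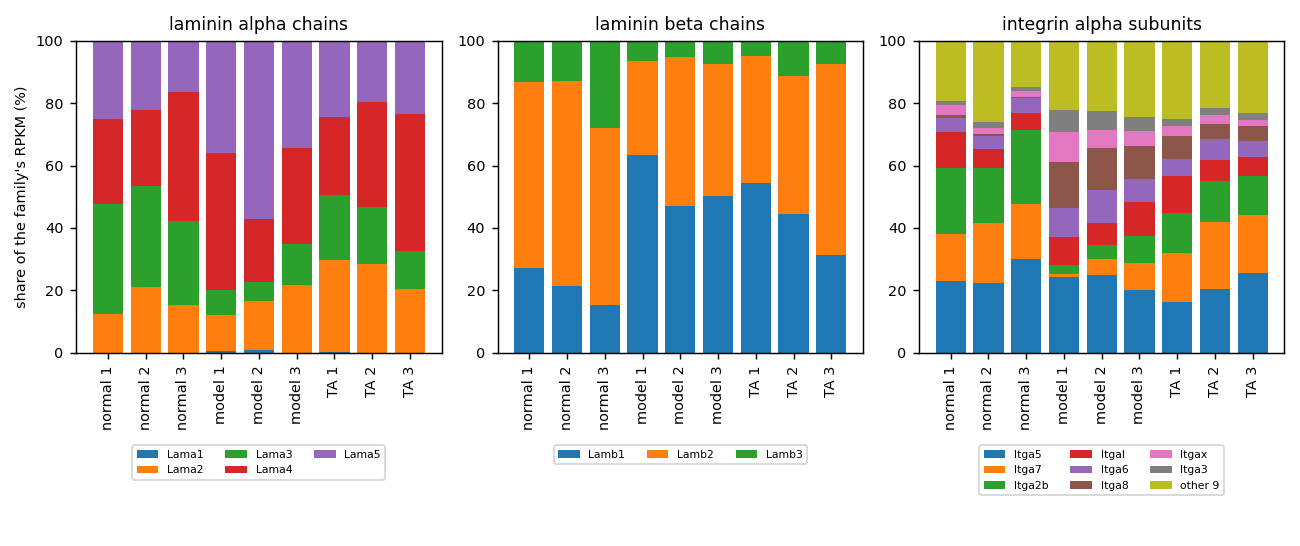
Share of the summed RPKM of each family taken by each gene, in percent, as 1 stacked bar per liver for laminin alpha chains, laminin beta chains and integrin alpha subunits. The Lamb1, Lama5 and Itga8 blocks are larger in the 3 model bars than in the 3 normal bars, while the Lama3 and Itga2b blocks are smaller, and the TA bars lie mostly between them.

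The comparison TA VS Model asks which subunits differed between treated and untreated fibrotic livers. Some laminin chains, Lama5 and Lamb1 among them, and the subunits Itgb6, Itgb4 and Itga3 were lower in the TA livers by the study's thresholds, and Itga7 was higher, but no gene passed the adjusted threshold. Of 32 tested subunits, 0 had an adjusted p under 0.05 by edgeR, as for the 12781 genes tested (0%). The lowest adjusted p was 0.23, and 16 subunits had an unadjusted p under 0.05. DESeq2 called 9 subunits by the adjusted p, among 520 of 16948 genes called. Limma voom with sample quality weights called 6, among 169 of 12781. By the study's thresholds 13 were lower and 1 higher in the TA group, against 10.2% and 2.11% of all genes tested. The groups did not overlap for 14 genes that were lower and 2 that were higher, against 12.4% and 10.8% of all genes tested. The median log2 fold change was -0.96 over the subunits, -1.21 over the 9 laminin chains and -0.71 over the 23 integrin subunits, beside -0.00 over all genes tested.

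The largest difference was in Itgb6, at a mean of 1.62 ± 0.794 CPM in the TA group and 11.5 ± 4.88 CPM in the model group (SD, n = 3). Its log2 fold change was -2.83 (SE 0.50, adjusted p = 0.23), and -2.99 without the first model rat. Lama5 had a log2 fold change of -2.28 (SE 0.46), Itgb4 one of -2.00 (SE 0.38) and Itga3 one of -1.83 (SE 0.38), each with an adjusted p = 0.23. For each of these genes every TA liver lay below every model liver. Itgax gave -1.79 (SE 0.50), or -1.05 with the first model rat left out, and Itga8 gave -1.66 (SE 0.36). Itga7, the single gene that was higher, gave 1.71 (SE 0.51, adjusted p = 0.258), or 2.33 with the third model rat left out, with all 3 TA livers above all 3 model livers. In all, 8 subunits, these among them, were called at the study's thresholds also without the first model rat.

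The other 6 were not called without that rat. Lamb1 had a log2 fold change of -1.80 (SE 0.54, adjusted p = 0.258) with all rats and -0.96 without it. Lama4 went from -1.56 (SE 0.67) to -0.33, the largest shift of the 14, and its groups overlapped. The values were -1.79 and -0.94 for Itgad, -1.21 and -0.54 for Lamb3, -1.04 and -0.73 for Itga6, and -1.01 and -0.70 for Lamb2. Some of these calls also needed single TA rats, since Lama4 and Lamb3 were not called without any 1 of them, Lamb2 was not called without the first or the second, and Itga6 was not called without the third. Lamb3, at 2.15, 3.82 and 3.06 CPM in TA liver, was the one gene called here that was not called in Model VS Normal. The remaining 18 tested subunits were not called, with log2 fold changes from -1.28 to 0.96. Both comparisons share the model livers, so that a high value in 1 of these livers raises the difference in both.

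**Figure D4:**
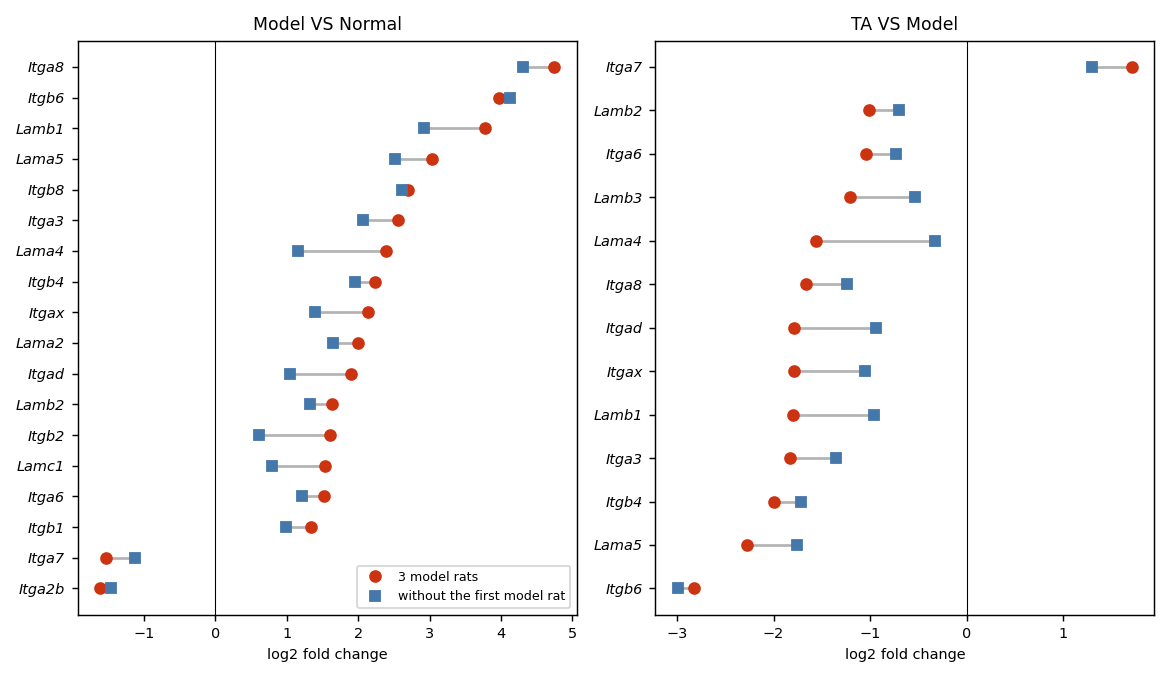
Log2 fold change of called subunit genes with all 3 model rats (red circles) and without the first model rat (blue squares), for Model VS Normal and TA VS Model. No point changes sides of 0, and Lama4, Itgb2, Lamb1, Itgad and Itgax show wide gaps, while Itgb6, Itgb8 and Itga2b hardly shift.

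The comparison TA VS Normal asks what remained different from saline-treated liver after TA. Itga8 was the one subunit of 31 tested that rose by the adjusted p, against 0.23% of the 12179 genes tested that rose and 0.0328% that fell. Its levels, given above, lay at least at 11.6 CPM in TA liver and at most at 2.14 CPM in normal liver, an 8.28-fold difference (log2 fold change 3.05, SE 0.34, adjusted p = 0.0167). This call was lost without any 1 normal rat or without the first TA rat, when the log2 fold change ran from 2.79 to 3.28. By the study's thresholds 5 subunits were higher and 0 lower, against 4.24% and 1.02% of all genes tested. No subunit had an adjusted p under 0.05 in the lower direction, and of the 7 with an unadjusted p under 0.05, Itga2b alone was lower (log2 fold change -0.68, SE 0.23, adjusted p = 0.35). The groups did not overlap for 9 genes that were higher and 1 that was lower, against 9.04% and 5.77% of all genes tested. The median log2 fold change was 0.41, beside -0.01 for all genes tested.

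Lamb1 was higher in TA than in normal liver by a log2 fold change of 1.93 (SE 0.33, adjusted p = 0.0694) and Lama2 by 1.36 (SE 0.32, adjusted p = 0.15). With the replicate number as a block, Itga8 and Lamb1 passed the adjusted threshold, with log2 fold changes of 3.03 and 1.92. The block raised the calls among all 12179 genes tested from 32 to 203. The fibroblast subunit Itga11 was at 1.93, 1.36 and 0.821 CPM in TA liver and at 0.167, 0.518 and 0.0836 CPM in normal liver (log2 fold change 2.28, SE 0.71, adjusted p = 0.302), and was not called without the first TA rat (1.95). It gave 3.32 without the second normal rat. In contrast, Itgb4 gave a log2 fold change of 0.19 (SE 0.35), Itgad 0.08 (SE 0.31) and Itga7 0.15 (SE 0.22), with no call. Lama5, with 0.72 (SE 0.38, adjusted p = 0.641), was not called either. Whether the remaining difference of Itga8 differed from that of another subunit was not tested.

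Other genes of the same system were read from 4 lists. Among all genes tested, 6.86% rose in Model VS Normal by the adjusted p and 16.6% were higher by the study's thresholds. In TA VS Model, 10.2% were lower by these thresholds. Of 10 tested genes for other basement membrane components, 5 rose with CCl4 by the adjusted p and 7 were higher by the study's thresholds, with a median log2 fold change of 2.23. The laminin linkers Nid1 and Nid2 rose, with log2 fold changes of 3.63 (SE 0.64, adjusted p = 0.0208) and 2.65 (SE 0.43, adjusted p = 0.0163). Col4a1, a chain of the main collagen IV network, gave 4.29 (SE 0.96, adjusted p = 0.0394), and Col4a5, a chain of a more restricted network, gave 1.44 (SE 0.30, adjusted p = 0.0324). In TA VS Model 5 of 11 were lower by the study's thresholds and 0 by the adjusted p, with Nid2 at -1.55 (SE 0.39) and Col4a1 at -2.45 (SE 0.91). The first model rat was the highest, with Col4a1 at 1272, 179 and 132 CPM and Nid1 at 240, 73.7 and 54.8 CPM in the model livers. With it left out, Col4a1 gave 2.49 and Nid1 gave 2.66 in Model VS Normal, and Col4a1 gave -0.66 in TA VS Model. Of 7 other laminin receptors, Bcam, which binds the laminin alpha-5 chain, was the one that rose (log2 fold change 1.52, SE 0.37, adjusted p = 0.046). Without the first model rat Bcam gave 1.18 and was called only by the study's thresholds (adjusted p = 0.071).

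Of 21 tested integrin ligands other than laminin, 7 rose by the adjusted p and 12 were higher by the study's thresholds, with a median of 1.47. Ltbp1, which tethers latent TGF-beta to the matrix, was even across the model livers at 73.2, 77.5 and 80.4 CPM, against 11.1, 9.51 and 9.11 CPM in normal liver (log2 fold change 2.98, SE 0.22, adjusted p = 0.00742). Ctgf, a matricellular protein, gave 2.88 (SE 0.30, adjusted p = 0.00871), Thbs1, an activator of latent TGF-beta, 3.65 (SE 0.55, adjusted p = 0.0138), and the microfibril protein Fbn1 3.23 (SE 0.57, adjusted p = 0.0215). Fbn1 was at 198, 69.8 and 46.9 CPM in the model livers and gave 2.35 with the first left out. In TA VS Model 9 of 22 were lower by the study's thresholds, and Ltbp1 was not among them (log2 fold change -0.45, SE 0.24). Of 30 cytoplasmic partners of integrins, 5 rose and 10 were higher by the study's thresholds, with a median of 0.66. The kinase Ptk2b gave 1.83 (SE 0.25, adjusted p = 0.0117), the focal adhesion protein Tns3 1.78 (SE 0.36, adjusted p = 0.0314) and the adaptor Tgfb1i1 2.80 (SE 0.63, adjusted p = 0.0398). Tgfb1i1 was at 34.1, 11.0 and 6.30 CPM in the model livers and gave 1.78 with the first left out. Fermt1, the epithelial kindlin, rose from 0, 1 and 0 reads in normal liver to 72, 14 and 26 in model liver (adjusted p = 0.0187). No gene on these lists fell in Model VS Normal by either rule.

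The lists were read again without the first model rat, a choice made after seeing the data. In Model VS Normal, 7 of 11 basement membrane genes, 11 of 21 ligands and 5 of 30 cytoplasmic partners were then higher by the study's thresholds, with 6, 9 and 5 rising by the adjusted p. In TA VS Model, 1 of 11, 3 of 22 and 2 of 30 were lower by the study's thresholds, and Bcam was not called. The share of all genes called without that rat is not given here. With all rats, 16.6% of all genes tested were higher in Model VS Normal and 10.2% lower in TA VS Model by these thresholds.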

How the data were processed

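RNA-seq was performed on the livers of 9 rats in 3 groups of 3, grouped by their labels. According to the methods, the authors trimmed reads with Trimmomatic and Cutadapt, mapped them with STAR and counted them with HTSeq-count. The methods name the human build hg19 and the submitters' processing notes name mm9, while the symbols are rat symbols, so no coordinates were taken from the files. The deposited tables hold unnormalized read counts per gene, on which all tests were run, and FPKM values by the authors, from which gene lengths were recovered. Columns of DESeq2-normalized values, fold changes and p-values by the authors were not used.

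Counts were tested with edgeR 4.0.16 (R 4.3.3) by the quasi-likelihood test with TMM scaling and its filter on low counts, on the 6 livers compared, in tables of 16938 and 16948 genes, with the 16730 shared genes for TA VS Normal. P-values were adjusted by Benjamini-Hochberg over all genes tested. The study's thresholds were p under 0.05 before adjustment and more than 1 on the log2 scale up or down. The study used them with DESeq2, and here they were applied to edgeR unless another fit is named. Standard errors were derived from the F statistic (absolute log2 fold change over its square root). Shares within a family were compared by exact permutation tests. Alternatives were DESeq2 1.42.0, limma 3.58.1 (voom with sample quality weights), other scalings and filters, a robust fit, the newer form of the fit, a joint fit of all 9 livers, omission of each rat, and a block on the replicate number. Nothing states that same-numbered rats are related, but deviations from the group means correlated between same-numbered livers in TA VS Normal, at 0.231, 0.373 and 0.453, so that the blocked values are given there.

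The genes named with values in every liver are those called in any comparison and the most abundant per length of each class, and from each list of other genes up to 4 with the lowest p in Model VS Normal. For 1 further gene that enters these counts and sums, the values are not reported here. The subunits and lists were chosen with earlier results of these data known. P-values measure the spread between these rats, and the share of it due to depth was not separated.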

Additional observations from a re-analysis of the deposited data

How the results depend on the processing

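No called subunit changed sign under any alternative run. Leaving out 1 rat at a time, the subunits called by the adjusted p ran from 0 to 19 for Model VS Normal and from 0 to 2 for TA VS Normal, and those called by the study's thresholds in TA VS Model from 8 to 17. By the adjusted p, DESeq2 called 20, 9 and 4 subunits in Model VS Normal, TA VS Model and TA VS Normal, against 13, 0 and 1 by edgeR. Over all genes, DESeq2 called 2714, 520 and 332, against 1002, 0 and 32 by edgeR. Limma voom called 6 in TA VS Model and 3 in TA VS Normal, where omitting the filter on low counts gave 2 and the replicate block gave 2. Over all genes, voom called 169 and 126 in these comparisons. In TA VS Normal, 76 genes were called without the filter and 203 with the block. Same-numbered livers correlated at 0.209, -0.0508 and -0.0547 (Model VS Normal) or 0.213, -0.037 and 0.00276 (TA VS Model). Differently numbered livers reached 0.199 and 0.193 in the same order. The highest same-numbered values were near 0.231, the lowest same-numbered value in TA VS Normal. Whether same-numbered livers are related is therefore not decided by these values. The block left 12 of the 13 adjusted calls of Model VS Normal, and for TA VS Model it gave 2 higher and 9 lower subunits by the study's thresholds. Voom gave 3 and 8, against 1 and 13. The cause of these differences was not tested. Scaling by library totals alone shifted the median of all genes from 0.02 to 0.65 in Model VS Normal, from -0.00 to -0.48 in TA VS Model and from -0.01 to 0.18 in TA VS Normal, and the subunits' median less that of all genes was then 1.59, -0.99 and 0.42, against 1.51, -0.96 and 0.42. The subunits' own median was 0.87 and -0.48 by voom in Model VS Normal and TA VS Model, against 1.52 and -0.96 by edgeR, and -0.40 in TA VS Model without the first model rat. Among subunits not called, 4, 9 and 11 changed sign under some alternative in the 3 comparisons. Low counts limit Itga10, Itga2, Lama1 and Lamc3, which could not be tested.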
